A study of Mus musculus with 22 samples.

Results

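mmu-miR-132-3p and mmu-miR-212-3p (below, miR-132-3p and miR-212-3p) are 2 of the 172 miRNAs listed in the small RNA profiles of the mouse arcuate nucleus (ARC) and paraventricular nucleus (PVH) of the hypothalamus. They were chosen by name, as the 2 guide strands of a single miRNA cluster that neuronal activity is known to induce (the choice was made with earlier results of these data known, but the rule uses no measured value). All animals were wild type C57BL/6J male mice aged 8 weeks and kept on chow after weaning. Off-Ob mice were born to mothers made obese with a high-fat diet and sweetened condensed milk before and during pregnancy and lactation, and Off-C mice to mothers on chow. Tissue was cut from frozen sections by laser capture, so each library pools all the cells of a nucleus, and fewer cells of a type cannot be told apart from less RNA per cell. There were 5 Off-Ob and 6 Off-C libraries of each nucleus, 22 in all from 12 mice. Both nuclei were sequenced from 4 Off-Ob and 6 Off-C mice, and of the Off-Ob mice F6A had only an ARC library here and F14A only a PVH library.

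miR-132 and miR-212 are cut from neighbouring hairpins of one primary transcript, whose promoter answers to the transcription factor CREB when neurons are depolarised or exposed to neurotrophins. In neurons of rodents they are known for promoting dendrite growth and spine formation, in part by repressing the GTPase-activating protein p250GAP. They are also induced by light in the suprachiasmatic clock, another hypothalamic nucleus.

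The mature sequences are shown because both miRNAs find their targets through the same seed and differ only in the bases after it. They are RefSeq entries on GRCm38.p6, written 5′ to 3′ with the seed, bases 2 to 8, in capitals. The last line is the opposite arm of the miR-132 hairpin, which was also listed.
miR-132-3p: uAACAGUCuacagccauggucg
miR-212-3p: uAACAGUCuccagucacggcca
miR-132-5p: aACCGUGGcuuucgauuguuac
Of the 172 listed miRNAs, 149 could be matched to a RefSeq sequence, and miR-132-3p and miR-212-3p were the only 2 of them with this seed. The same held among the 1679 mature mouse miRNAs of the RefSeq table. The pair had identical bases at 17 of 22 positions, the first 9 among them. Counted from the 5′ end, with the base of miR-132-3p first and that of miR-212-3p second, the differences were A10C, C14U, U17C, U20C and G22A. How reads that match more than 1 miRNA were assigned is not given in the sources used here.

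Both hairpins lie on the plus strand of chromosome 11. Mir212 spans 75173388 to 75173478 and Mir132 spans 75173682 to 75173747 on GRCm38, with 203 bases between them. The hairpin of Mir132 is shown with both listed arms in capitals, miR-132-5p first and miR-132-3p second.
Mir132 hairpin: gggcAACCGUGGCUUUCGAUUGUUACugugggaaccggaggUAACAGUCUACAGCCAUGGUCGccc
GENCODE places both hairpins (ENSMUSG00000065590.1 for Mir212 and ENSMUSG00000065537.2 for Mir132) in an intron of the noncoding transcript 1700016P03Rik. The nearest coding genes, Hic1 and Ovca2, lie on the minus strand, 3868 bases before Mir212 and 2194 bases after Mir132.

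The deposited values were log2(CPM + 1), where CPM relates the reads of a miRNA to all listed miRNA reads of its library, corrected by a scale factor. The underlying whole reads could be recovered. The libraries were shallow, with 22680 to 91790 reads in the ARC and 22495 to 61476 in the PVH. The ARC libraries of the Off-Ob mice F42A and F6A stood apart from the rest. The let-7 family, counted with its member miR-98, took 79.1% of the reads of F42A and 64.2% of those of F6A, against 34.7% to 40.3% in the ARC of the 3 remaining Off-Ob mice and 33.8% to 46.8% in the Off-C ones. F42A also had 20 of the 172 miRNAs at 0 reads and the lowest scale factor, 0.470. Of all listed miRNAs, 54 (31.4%) lay below every Off-C ARC library in both F42A and F6A, and 32 (18.6%) lay above every one. The ARC differences of both members are therefore given with and without these libraries. As for the tissue, 9 of 11 neuronal marker miRNAs were listed and all 9 had reads in every library, although miR-124-3p, the best known marker of neurons, had only 3 to 35 reads.

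In the ARC, miR-132-3p was low in F42A and F6A and close to the Off-C level in the other 3 Off-Ob mice. mmu-miR-132-3p reached 1477 CPM in F12A, 2075 CPM in F13A and 1959 CPM in F41A, but 316 CPM in F6A and 375 CPM in F42A. The 6 Off-C libraries had a lowest value of 1465, a median of 2088 and a highest of 2653 CPM. The groups overlapped, and only F42A and F6A lay below every Off-C library (0.581% of the 172 miRNAs had groups that did not overlap in the ARC). In reads, miR-132-3p gave 4 in F42A and 13 in F6A, where the mean Off-C share would have given 52.5 and 109 reads. Its share of the reads was thus 13.1-fold lower in F42A and 8.41-fold lower in F6A than the Off-C mean. These folds are on the share of reads, without the scale factor. As deposited, the log2 level of miR-132-3p relative to the Off-C mean was -2.44 in F42A and -2.69 in F6A. On the log2(CPM + 1) scale it averaged 9.87 ± 1.33 in Off-Ob mice (SD, n = 5) and 10.996 ± 0.31 in Off-C mice (SD, n = 6). The log2 difference was -1.13 (SE 0.50, 95% interval -2.23 to -0.026), with an adjusted p of 0.49 from limma. Of the 172 miRNAs 0% passed the adjusted test, and 5.81% (2.33% with lower values in Off-Ob mice) had an unadjusted p under 0.05, miR-132-3p among them at 0.046 in limma. An exact permutation test of the 462 splits gave a two-sided p of 0.052, against a smallest possible p of 0.0022. Leaving out 1 library in turn gave an exact p of 0.033 to 0.14, under 0.05 without RC13A (0.048), F13A (0.033) or F41A (0.033). Without F42A and F6A the means were 10.83 ± 0.26 in Off-Ob mice (SD, n = 3) and 10.996 ± 0.31 in Off-C mice (SD, n = 6), a difference of -0.17 (exact permutation p = 0.44).

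miR-212-3p was also low in F42A and F6A. mmu-miR-212-3p reached 699 CPM in F12A, 544 CPM in F13A and 926 CPM in F41A, 122 CPM from 5 reads in F6A, and 0 reads in F42A. The Off-C libraries ranged from 633 over a median of 964 to 1208 CPM. F13A as well as F6A and F42A lay below every Off-C library, so that 3 of 5 Off-Ob libraries did. On the log2 scale F41A was the only one above the Off-C mean (9.86 against 9.82). In CPM it lay below that mean (926 against 940). Of all 172 miRNAs, 74 lay below every Off-C ARC library in F42A, 67 in F6A and 24 in F13A. The 0 in F42A is an upper limit and not an absence. A count of 0 allows 3 reads, which at this depth is 0.0132% of the library or 281 CPM, above the measured level of F6A. The mean Off-C share would have given 23.6 reads there, so the share in F42A was at least 7.86-fold lower, while in F6A it was 9.81-fold lower from its 5 reads. These folds also leave out the scale factor. As deposited, the limit of 281 CPM in F42A and the 122 CPM in F6A stood against an Off-C mean of 940 CPM.

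The log2 difference of miR-212-3p between Off-Ob and Off-C ARC libraries was -2.76 (SE 1.47) with F42A at 0 and -1.13 (SE 0.48) with F42A at its limit, where the adjusted p from limma was 0.49 in both cases. The unadjusted p from limma was 0.085 with F42A at 0 and 0.035 at its limit. By exact permutation the two-sided p was 0.024 with F42A at 0 and 0.037 at its limit. Leaving out 1 library in turn gave an exact p of 0.014 to 0.087, and 6 of the 11 omissions, those of RC8A, RC9A, RC11A, RC12A, F6A and F42A, put it above 0.05 (0.087, 0.056, 0.087, 0.087, 0.052 and 0.062). Without F42A and F6A together the difference was -0.36 (exact permutation p = 0.26). No member passed the adjusted threshold under any setting run in the ARC.

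**Figure D1:**
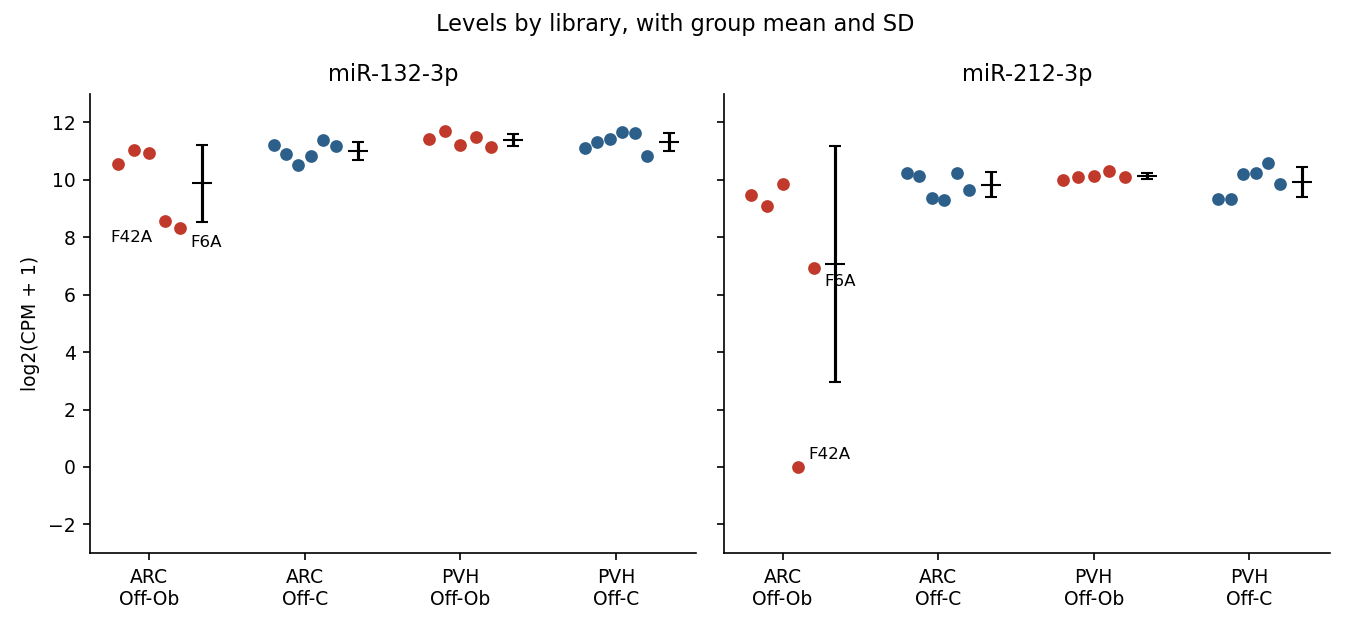
Level of miR-132-3p (left) and miR-212-3p (right) in each library, on the log2(CPM + 1) scale, by nucleus and maternal group, with the mean and SD of each group beside its points. In the ARC the Off-Ob libraries F42A and F6A lie below every Off-C library for both miRNAs, and F42A stands at 0 for miR-212-3p because it has 0 reads.

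Across all listed miRNAs the median log2 difference between Off-Ob and Off-C ARC libraries was -0.16 as deposited and -0.52 in CPM without the scale factor. Relative to that median, miR-132-3p stood at -0.97 as deposited and at -0.16 without F42A and F6A. A scale factor moves all miRNAs of a library alike, so the choice of scaling has almost no bearing on this distance.

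The miRNAs of neurons were low in F42A and F6A as a sum, but not each of them. The 9 measured neuronal markers summed to 0.542% of all reads for F42A and 0.771% for F6A, while in the ARC of the remaining Off-Ob mice they made up 2.54% to 2.86% and 1.98% to 2.92% in the Off-C ones. After the scale factor the sums were 11536 CPM for F42A and 8848 CPM for F6A, with 18629 CPM as the lowest Off-C value. In both libraries 5 of the 9 (miR-128-3p, miR-9-5p, miR-129-2-3p, miR-153-3p and miR-218-5p) lay below every Off-C ARC library, against 31.4% of all 172 miRNAs, and none was at 0. The other 4 did not, and 3 of them had log2 differences above 0 between Off-Ob and Off-C mice, 0.42 for miR-383-5p, 0.32 for miR-9-3p and 0.19 for miR-124-3p. Over both groups 0 of the 9 passed the adjusted test of limma in the ARC. The other listed markers, 2 of oligodendrocytes, 1 of microglia, 2 of vessels and 1 pituitary and neuroendocrine miRNA (miR-7a-5p), did not pass it either. Low sums in F42A and F6A were not limited to neurons. Vessel markers took 0.384% and 0.629%, with 0.665% as the lowest Off-C ARC value, but lay inside the Off-C range after the scale factor. miR-7a-5p took 6.65% and 12.2%, with 15.2% as the lowest Off-C value. In CPM it stood at 141527 and 139593, with 143384 as the lowest Off-C value. Oligodendrocyte and microglia sums lay below every Off-C library in F42A only. The part of the let-7 share, the depth and the neuronal markers in the level of the pair was not tested.

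**Figure D2:**
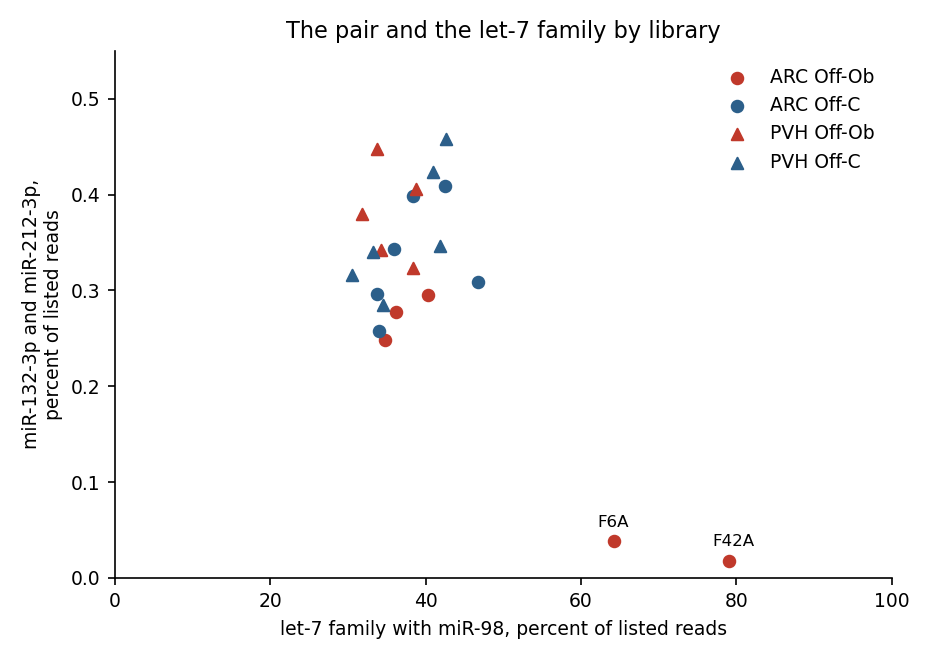
Reads of miR-132-3p and miR-212-3p together against reads of the let-7 family with miR-98, both as percent of the listed miRNA reads, for each library. The ARC libraries of F42A and F6A lie at 0.0176% and 0.0381% of pair reads, while the other 20 libraries lie between 0.249% and 0.458%.

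In the PVH the maternal groups overlapped for both miRNAs. miR-132-3p measured 2753 CPM in F12A, 3296 CPM in F13A, 2352 CPM in F14A, 2850 CPM in F41A and 2256 CPM in F42A, against a lowest of 1806, a median of 2631 and a highest of 3267 CPM in Off-C libraries. miR-212-3p measured 1025, 1099, 1107, 1251 and 1094 CPM in the same Off-Ob mice, against 635, 1041 and 1531 CPM as the lowest, median and highest of the Off-C libraries. The Off-Ob values of miR-212-3p lay inside the Off-C range, all 5 above the Off-C mean on the log2 scale. The log2 differences were 0.067 (95% interval -0.34 to 0.47) for miR-132-3p and 0.20 (-0.30 to 0.71) for miR-212-3p, with adjusted p values from limma of 0.98 for each, where 0% of the 172 miRNAs passed. The exact permutation p values were 0.71 for miR-132-3p and 0.38 for miR-212-3p. The PVH library of F42A, the mouse with the lowest pair in the ARC, had 66 reads of miR-132-3p and 32 of miR-212-3p, and its let-7 share was 31.7%.

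The ratio of the pair needs no scale factor, since both miRNAs are read in the same library. miR-132-3p was the more abundant of the pair in all 22 libraries, ranking between 37 and 58 of the 172 outside F42A and F6A of the ARC, and made up 70.8% of the reads of the pair, with 2159 reads against 890 of miR-212-3p. Pooled by group it made up 70.9% (exact 95% interval 66.9 to 74.6) in Off-Ob and 69.6% (66.4 to 72.6) in Off-C ARC libraries. In the PVH it made up 70.7% (67.4 to 73.8) in Off-Ob and 72.2% (69.0 to 75.2) in Off-C libraries. PCR copies of a molecule were not marked in these libraries, so the intervals allow for counting error only.

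In F6A, where both levels were low, 13 of 18 reads were miR-132-3p, or 72.2% with an exact interval of 46.5 to 90.3. In F42A all 4 reads were miR-132-3p, which leaves a share between 39.8% and 100%. Over the 22 libraries, 20 of the intervals held the pooled share. The 2 that did not were the ARC of F13A at 79.2% (71.2 to 85.8) and the PVH of RC12A at 79.7% (72.2 to 86.0), both on the side of more miR-132-3p. The share of F6A lay inside the range of the 20 libraries other than F6A and F42A of the ARC, 62.5% to 79.7%.

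**Figure D3:**
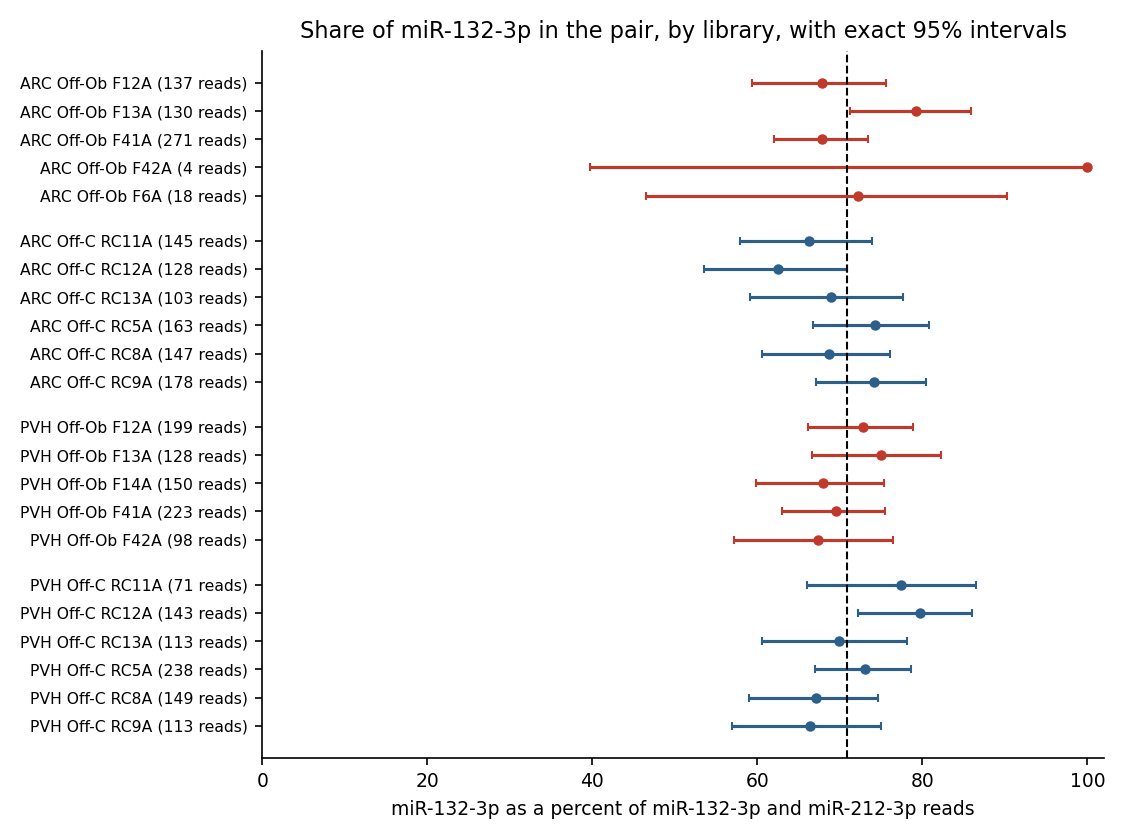
Share of miR-132-3p in the reads of miR-132-3p and miR-212-3p in each library, with exact (Clopper-Pearson) 95% intervals and the number of reads behind each. The dashed line is the pooled share, 70.8%, which lies inside the interval of 20 of the 22 libraries.

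With 0.5 reads added to each count, the log2 ratio of miR-132-3p to miR-212-3p averaged 1.70 ± 0.89 in Off-Ob (SD, n = 5) and 1.16 ± 0.31 in Off-C ARC libraries (SD, n = 6). The difference of 0.54 had an exact permutation p of 0.18. Most of it came from F42A, whose ratio rests on 4 reads and a 0. The difference was 0.17 without F42A, 0.19 without F42A and F6A, and -0.020 with F42A at its limit of 3 reads. In the PVH the log2 ratio averaged 1.26 ± 0.23 in Off-Ob (SD, n = 5) and 1.39 ± 0.40 in Off-C libraries (SD, n = 6), a difference of -0.13 (exact permutation p = 0.53). The spread of the log2 ratio over the 20 libraries without F42A and F6A of the ARC was 0.33 (SD).

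The 2 arms of the miR-132 hairpin are cut from the same precursor, and miR-132-5p is the arm that is usually less abundant. The 3p arm made up 92.3% of the reads of both arms over all libraries, with 2159 reads against 181. miR-132-5p itself had 2 to 16 reads a library and could not be measured finely. In the ARC of F42A it gave 2 reads where the mean Off-C share would have given 4.26, and in F6A 4 reads against 8.87. After the scale factor it stood at 188 CPM in F42A, above the Off-C mean of 168 CPM, and at 97.2 CPM in F6A. The 3p arm was then 66.7% of the reads of the hairpin in F42A (exact interval 22.3 to 95.7) and 76.5% in F6A (50.1 to 93.2). Both intervals hold the pooled share of the Off-C ARC libraries, 92.3%, although these were the lowest shares of the 22 libraries. The log2 difference of miR-132-5p between Off-Ob and Off-C mice was -0.31 in the ARC (exact permutation p = 0.53), -0.42 there without F42A and F6A (exact permutation p = 0.55), and -0.14 in the PVH (exact permutation p = 0.53).

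The ARC was compared with the PVH in the same mice, on CPM over the library total, since the tables of the nuclei were scaled separately. The libraries of each nucleus were also sequenced as a pool of their own, so the nucleus and the sequencing pool cannot be told apart. miR-132-3p was lower in the ARC in 8 of 10 mice, by 0.64 ± 1.17 on the log2 scale (SD, n = 10, exact sign-flip permutation p = 0.021). Without F42A it was lower in 7 of 9 mice, by 0.29 ± 0.35 (exact permutation p = 0.043). In the Off-C mice alone it was lower in 4 of 6, by 0.17 ± 0.38 (exact permutation p = 0.28, smallest possible 0.031).

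Over all 22 libraries, those of F6A and F14A included, limma with the mouse as a block was also run. It gave miR-132-3p a log2 difference between ARC and PVH of -0.95 (SE 0.37) and an adjusted p of 0.066. Without F42A and F6A it was -0.31 (SE 0.15, adjusted p = 0.15 from limma). In that comparison 21.5% of the 172 miRNAs passed with all libraries, 3 higher and 34 lower in the ARC (19.8% lower). The unadjusted p of miR-132-3p was 0.017 in limma, and 40.1% of the miRNAs had an unadjusted p under 0.05 (35.5% lower in the ARC). Without RC11A 22 miRNAs passed, and without RC12A 20. The direction of the passing miRNAs depends on the scaling. Median-ratio scaling gave 15 higher and 17 lower, and it moved the median difference of all miRNAs to 0.016, against -0.38 for CPM over the total. Relative to the median, miR-132-3p stood at -0.57 and miR-212-3p at -1.10 in CPM over the total. Without F42A and F6A the values relative to the median were -0.13 for miR-132-3p and -0.043 for miR-212-3p. Of the 9 neuronal markers 8 had lower values in the ARC and 5 of these passed, and their summed share was 1.98% to 2.92% in Off-C ARC libraries and 3.25% to 5.25% in Off-C PVH libraries. Both vessel markers also passed with lower values in the ARC. The part of these cell types in the difference of the pair was not tested.

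Over the pairs of libraries, miR-212-3p did not differ between the nuclei beyond its spread. It was lower in the ARC in 8 of 10 mice, but its mean difference was -1.14 ± 3.26 (SD, n = 10, exact permutation p = 0.27), with F42A at -10.28 because of its 0. Without F42A it was -0.12 ± 0.60 (SD, n = 9, exact permutation p = 0.54), and in Off-C mice 0.062 ± 0.62 (SD, n = 6, exact permutation p = 0.81). The limma fit gave -1.48 (SE 0.83, adjusted p = 0.18) with F42A at 0 and -0.80 (SE 0.33, adjusted p = 0.082) with F42A at its limit. It gave -0.63 without F42A, and -0.22 when F6A was also left out. The unadjusted p from limma was 0.087 with F42A at 0, 0.026 at its limit and 0.26 without F42A and F6A. With all libraries 40.1% of the 172 miRNAs had an unadjusted p under 0.05. The log2 ratio of the pair differed by 0.067 ± 0.89 between ARC and PVH (SD, n = 10, exact permutation p = 0.82) and by -0.16 ± 0.55 without F42A (SD, n = 9, exact permutation p = 0.43).

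**Figure D4:**
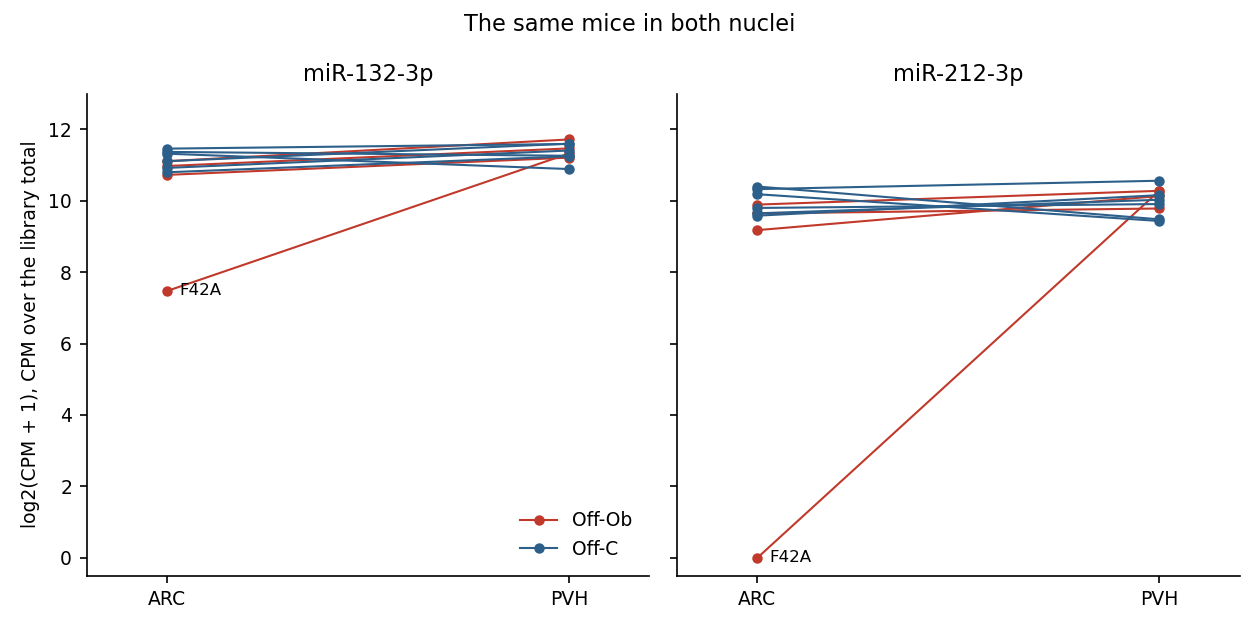
Level of miR-132-3p (left) and miR-212-3p (right) in the ARC and PVH of the 10 mice with both libraries, as log2(CPM + 1) with CPM over the library total, 1 line a mouse. The line of F42A runs from 7.47 in the ARC to 11.32 in the PVH for miR-132-3p, while the lines of the other 9 mice stay within 0.61 of level.

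The maternal groups were also compared in the difference between nuclei. The ARC value minus the PVH value of miR-132-3p averaged -1.36 in the 4 Off-Ob mice and -0.17 in the 6 Off-C mice, a gap of -1.19 on the log2 scale (exact permutation of 210 splits, p = 0.019, smallest possible 0.0048). The 3 Off-Ob mice other than F42A had -0.48 (F12A), -0.61 (F13A) and -0.49 (F41A), and the Off-C mice ran from -0.49 to 0.43. Without F42A the gap was -0.36 (exact permutation p = 0.14). For miR-212-3p the gap was -3.001 with F42A at 0 (exact permutation p = 0.043), -1.24 with F42A at its limit (exact permutation p = 0.057), and -0.55 without F42A (exact permutation p = 0.18). It also lost its call without RC9A (-3.03), RC11A (-2.83), RC12A (-2.86) or F13A (-3.66). For the log2 ratio it was 0.73 (exact permutation p = 0.25). These were 3 tests, with p not adjusted for their number. On the authors' scaled values the gaps were -0.85 for miR-132-3p (exact permutation p = 0.076) and -2.93 for miR-212-3p (exact permutation p = 0.062). limma's test of the same difference over all 172 miRNAs gave an adjusted p of 0.54 for each miRNA.

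Whether the pair rose and fell together was asked over libraries. In the ARC, Pearson's r between the log2 levels was 0.81 over 11 libraries (permutation p = 0.0093, adjusted p = 0.065 over the 7 relations computed). Spearman's rho over the same libraries was 0.77 (permutation p = 0.0076, adjusted p = 0.053). F42A and F6A are the 2 libraries farthest from the median of miR-132-3p. Without them r was 0.57 over 9 libraries (permutation p = 0.11, adjusted p = 0.20) and rho was 0.60 (permutation p = 0.096, adjusted p = 0.14), both still positive but past no threshold. In the PVH r was 0.54 over 11 libraries (permutation p = 0.091, adjusted p = 0.20). There rho was 0.66 (permutation p = 0.030, adjusted p = 0.078). Leaving out the 2 PVH libraries farthest from the median of miR-132-3p gave an r of 0.40.

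Among the 6 Off-C libraries alone, r was 0.71 in the ARC (exact permutation p = 0.11, adjusted 0.20) and 0.61 in the PVH (exact permutation p = 0.20, adjusted 0.28). There rho was 0.89 in the ARC (exact permutation p = 0.033, adjusted 0.078) and 0.77 in the PVH (exact permutation p = 0.10, adjusted 0.14). Without the 2 farthest libraries r was 0.41 in the ARC and 0.89 in the PVH. Over the 10 mice the ARC level had an r with the PVH level of 0.078 for miR-132-3p (rho 0.26, permutation p = 0.84 and 0.47) and of -0.30 for miR-212-3p (rho -0.31, permutation p = 0.35 and 0.39).

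**Figure D5:**
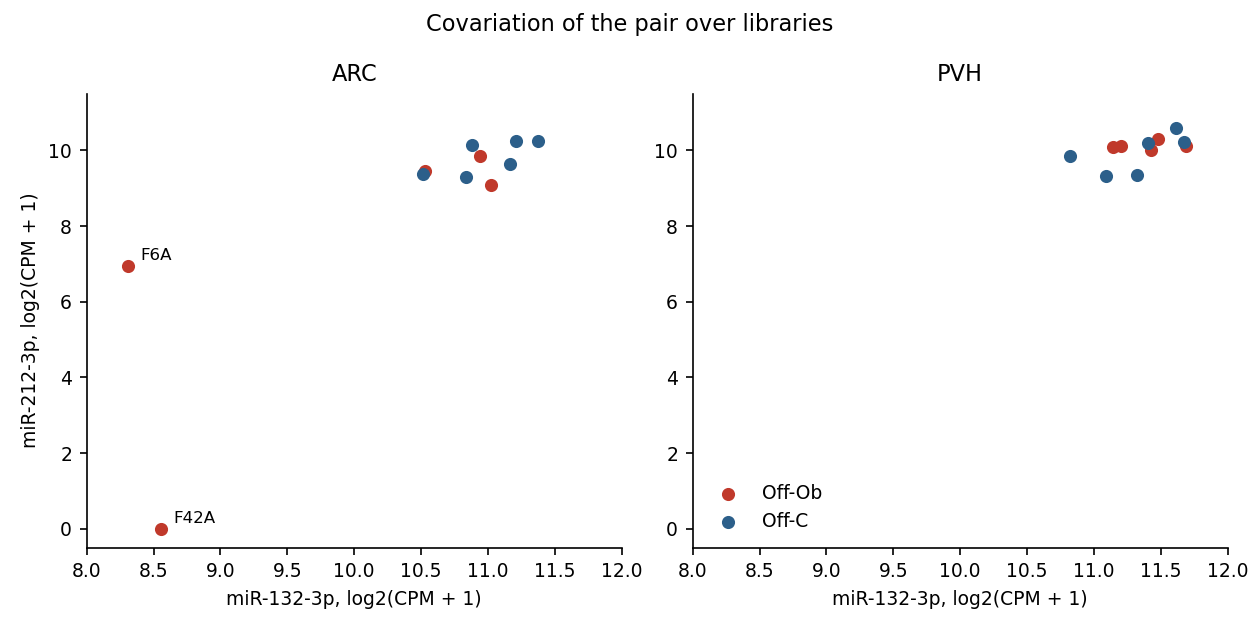
Level of miR-212-3p against miR-132-3p in each library of the ARC (left) and PVH (right), on the log2(CPM + 1) scale. F42A and F6A of the ARC lie apart at the lower left, and r is 0.81 with them and 0.57 without them.

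The miRNAs most like each member were found over the 22 libraries, after the mean of each nucleus and maternal group was subtracted, among the 135 other miRNAs with at least 10 reads a library on average. For miR-132-3p they were miR-125a-5p (r = 0.95), miR-667-3p (0.95), miR-153-3p (0.92), miR-135a-5p (0.92) and miR-135b-5p (0.89), and miR-212-3p was at place 21 (0.72). For miR-212-3p they were miR-409-5p (0.97), miR-92a-3p (0.97), miR-467a-5p (0.97), miR-434-3p (0.96) and miR-21a-5p (0.94), and miR-132-3p was at place 20. The libraries share their depth and scale factor, and F42A and F6A weigh in every one of these values.

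Without those libraries, a setting chosen after seeing the data, the order was another one. miR-132-3p then went most with miR-9-3p (r = 0.75), miR-211-5p (0.74), miR-153-3p (0.74), miR-126-5p (0.73) and miR-98-5p (0.71), of which only miR-153-3p was among the 5 before. miR-212-3p went most with miR-211-5p (0.87), miR-126-5p (0.82), let-7b-5p (0.80), let-7c-5p (0.80) and let-7k (0.78). These 3 let-7 miRNAs had r of -0.68, -0.74 and -0.77 with miR-212-3p over all 22 libraries. The other member was at place 28 for miR-132-3p and 27 for miR-212-3p, with r = 0.52.

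Of 16 miRNAs listed as regulated by neuronal activity, 7 were measured, miR-132-5p among them. In the ARC, 2 of the 7 were higher and 5 lower in Off-Ob mice, where 105 of all 172 miRNAs were lower. The median log2 difference of the 7 was -0.086 against -0.16 for all 172, and none of the 7 passed the adjusted test. In the PVH, 4 were higher and 3 lower in Off-Ob mice, where 74 of all 172 miRNAs were lower, and again none passed. The 4 of highest level were miR-191-5p at -0.050 (SE 0.19), miR-495-3p at -0.086 (SE 0.26), miR-134-5p, which limits spine size by repressing Limk1, at -0.40 (SE 0.43), and miR-485-5p at 0.73 (SE 0.43) on the log2 scale in the ARC. Summed, the 7 took 1.14% of the F42A library and 1.96% of the F6A library, whereas the Off-C ARC libraries had 2.36% to 3.99%. After the authors' scale factor the sums of F42A and F6A were 24198 and 22484 CPM, inside the Off-C range of 21412 to 32967 CPM. Most of each sum was miR-191-5p, with 191 reads in F42A and 730 in F6A. In both libraries miR-495-3p and miR-134-5p lay below every Off-C ARC library as deposited, against 31.4% of all 172 miRNAs. The others of the 7 did not. Between nuclei all 7 had lower values in the ARC than in the PVH, and 2 of them, miR-495-3p and miR-138-5p, passed the adjusted test of limma. Their median log2 difference was -0.78, against -0.38 for all 172 miRNAs, of which 21.5% passed, and the direction depends on the scaling as given for the comparison of the nuclei.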

How the data were processed

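The authors prepared TruSeq small RNA libraries from laser-captured tissue, and the submitters' processing notes name Bowtie 1.2.3, GRCm38 and edgeR 3.36.0. Deposited values are on a log2 scale, log2(CPM + 1), and the authors' sheets give each library's total and scale factor. Multiplying back gave whole reads, with a largest distance of 3.87e-10 from a whole read (tolerance 0.01) and 100% of 3784 values whole. A second header line gives each column's group, and an identifier sheet gives the mouse, but not which sample record a column belongs to. 2 libraries on that sheet were not analysed here. Each litter gave 1 male, and p-values measure the spread between these mice.

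Maternal groups were compared by limma 3.58.1 in R 4.3.3 on the log2 values (eBayes with trend, Benjamini-Hochberg over the 172 miRNAs, all with a CPM of 1 in at least 5 libraries) and by exact permutation. Nuclei were compared by limma over all 22 libraries on log2(CPM + 1) without the scale factor, with the mouse as a block. The block allows for a correlation between libraries of the same animal (consensus correlation -0.13) but does not pair them. Mice with both libraries were compared as pairs by exact sign flips. Ratios took 0.5 added reads. Correlations of more than 6 libraries used 100000 permutations. All tests were two-sided with a threshold of 0.05. Code for limma was tested on simulated data with fixed library totals, which does not test shifts in composition. Positions came from GENCODE mouse release 21. Python 3.11.15, NumPy 2.4.6 and SciPy 1.17.1 were used.

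The members and lists were chosen with earlier results of these data known. Named miRNAs were both members, the 5 most alike to each, and at most 4 of the activity list, those of highest level. A count of 0 was read as at most 3 reads. Alternatives were pseudocounts of 0.5, 10 and 100, filters, plain CPM, median-ratio scaling, a total without let-7, limma settings, voom, other added reads, and each library or mouse left out, and F42A with F6A. Entering F42A at its limit, the permutations with 1 library left out and the likeness without F42A and F6A were added after seeing the data.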

Additional observations from a re-analysis of the deposited data

Results flagged for a closer look

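The difference between ARC and PVH was more negative for both miRNAs when the mother was obese, by exact permutation between Off-Ob and Off-C mice, with a gap of -1.19 on the log2 scale for miR-132-3p (p = 0.019) and -3.001 for miR-212-3p (exact permutation p = 0.043) with F42A at 0 reads. With F42A at its limit the gap of miR-212-3p was -1.24 (exact permutation p = 0.057). On the authors' scaled values the gaps were -0.85 and -2.93 (exact permutation p = 0.076 and 0.062), and limma's interaction gave an adjusted p of 0.54 for each. Without F42A the gaps were -0.36 and -0.55 with exact permutation p values of 0.14 and 0.18. No library of a group lay far enough from its others by Dixon's criterion, in 16 groups tested over the levels of miR-132-3p, miR-212-3p and miR-132-5p and the log2 ratio, where chance marks about 1 in 20. That criterion looks for 1 distant library, and F42A and F6A, low together in the same group of 5, can hide each other from it.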

How the results depend on the processing

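No count of miRNAs past the adjusted threshold moved from 0 in the ARC or the PVH. Both members kept a negative difference between Off-Ob and Off-C mice in the ARC under every alternative run, from -1.48 to -0.17 for miR-132-3p and from -3.45 to -0.36 for miR-212-3p, the smallest without F42A and F6A. In the PVH, leaving out 1 library in turn gave -0.033 to 0.14 for miR-132-3p, and it turned negative without RC9A (-0.033) and without F13A (-0.0086). The log2 ratio in the ARC differed by 0.092 with the reads of a group pooled and by -0.020 with F42A at its limit, and by 0.17 to 0.70 with 1 library left out.

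Between nuclei, miR-132-3p passed the adjusted threshold on the authors' scaled values (-0.93, adjusted p = 0.018 from limma) and with limma-voom (-0.88, adjusted p = 0.047), and with 1 mouse left out it ran from -1.10 to -0.72, passing without F12A, F13A or F41A, and it was -0.31 without F42A and F6A. With median-ratio scaling miR-132-3p was -0.55 and did not pass (unadjusted p = 0.065 and adjusted p = 0.15 from limma). Without let-7 in the total it was -0.67 (adjusted p = 0.060 from limma), and in Off-C mice only -0.17 (adjusted p = 0.67 from limma). With no replicate block it was -0.94 and miR-212-3p -1.48, with no change of call. In Off-C mice only, miR-212-3p was 0.062. The log2 ratio between nuclei turned to -0.17 with 0 reads added, -0.11 with 3, -0.23 in Off-C mice, -0.16 without F42A and -0.21 with F42A at its limit, and ran from -0.16 to 0.21 with 1 mouse left out. Calls over all miRNAs numbered 37, against 59 on the authors' scaled values, 16 in Off-C mice, 22 without RC11A and 20 without RC12A.

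The gap between maternal groups lost its call on the authors' scaled values (-0.85 for miR-132-3p and -2.93 for miR-212-3p) and in limma's interaction (-1.57 and -3.09), and for miR-212-3p with F42A at its limit (-1.24). With 1 mouse left out it ran from -1.48 to -0.36 for miR-132-3p, losing its call without F42A, and from -3.93 to -0.55 for miR-212-3p, losing it without RC9A, RC11A, RC12A, F13A or F42A. In the ARC the correlation was 0.57 without F42A and F6A and 0.80 to 0.96 with 1 library left out, and in the PVH 0.46 to 0.63, passing without RC12A (0.63). The cause of these changes was not tested.

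No paired analysis was possible between maternal groups because the columns carry no replicate number and the mice differ. Depth limits miR-212-3p in the low ARC libraries, with 5 reads in F6A and 0 in F42A, and miR-132-5p in all, with 2 to 16 reads.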
